A study of Homo sapiens with 12 samples.

Results

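The 10 genes described here are FOS, FOSB, JUN, JUNB, JUND, EGR1, IER2, DUSP1, KLF2 and KLF6, which belong to the AP-1, EGR and KLF families and to their immediate early companions. They were taken by symbol from the annotation of the array, with every probe set that names one of them as its only gene. The choice of the 10 genes was made with earlier results of these data known, so their counts and medians are descriptive. That gave 25 probe sets, out of 41091 that name a single gene, and 10 of the 19775 genes so named. A probe set is a group of short DNA probes against one stretch of a transcript. FOS, FOSB, JUNB and IER2 had 1 probe set each.

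Immediate early genes are transcribed within minutes of a signal from growth factors, stress or cell contact, without new protein synthesis, and most of their mRNAs are short-lived. Signals through the RAS, ERK, JNK and p38 kinases reach their promoters by way of SRF with its ternary complex partners of the ELK family, and by way of CREB and ATF proteins. Fos and Jun proteins pair as the transcription factor AP-1, EGR1 is a zinc finger activator, the KLF proteins bind GC-rich promoters, and DUSP1 removes phosphate from the kinases that induced it. In B-lineage cells KLF2 takes part in quiescence and homing, and Jun and Fos proteins take part in plasma cell differentiation.

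Expression was measured in H929, an established cell line of multiple myeloma, a malignancy of the plasma cells that make antibodies. There were 12 arrays, with 3 in each of 4 groups. In the hairpin arm the cells were infected with a short hairpin RNA against BCL9 (shBCL9) or against GFP (shGFP), and GFP-positive cells were collected by flow cytometry. In the transfected arm the cells received human miR-30, listed as hsa-miR-30a/b/c/d/e without a statement of whether the 5 were given together, or the worm microRNA cel-miR-67 as control. BCL9 is a coactivator of beta-catenin in Wnt signalling, and the study set a hairpin against it beside miR-30 as a regulator of it. Whether replicate arrays stem from separate cultures is not given in the labels, and p-values therefore cover only array-to-array spread, possibly technical. All groups are a single cell line, and the labels name a single hairpin against BCL9 without its sequence. In bulk RNA of this kind, fewer cells that express a gene and less RNA per cell cannot be told apart.

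Values are log2 intensities, here called levels, and array medians lay between 5.46 and 5.53. A gene was represented by its brightest probe set and tested when 3 or more arrays showed it above their 40th percentile (levels of 4.86 to 4.95), which held for 14725 genes and for all 10 described here. BCL9 itself had levels of 7.61 to 7.85 in shBCL9 arrays and 7.88 to 7.90 in shGFP arrays, a difference of -0.15 that did not pass the test (SE 0.0681, limma adjusted p = 0.0874). In arrays labelled miR-30 it had 7.83 to 8.05, against 7.79 to 7.86 in cel-miR-67 arrays, a difference of 0.14 in the direction opposite to a repressed target (adjusted p = 0.269). These arrays are therefore called by their label throughout. All 8 plasma cell markers lay above the filter level in each group, and NSD2 and FGFR3, the genes joined to the immunoglobulin locus in t(4;14) myeloma, did too. Markers of other cell types were not all low: in both hairpin groups 4 of 5 B cell markers on the array, 4 of 7 T and NK cell markers, 2 of 4 myeloid and 2 of 2 erythroid markers lay above that level. Of the 8 stromal and epithelial markers 5 did in shBCL9 arrays and 4 in shGFP arrays. Those below it in each group included MS4A1, CD3G, CD2, NKG7, CD14, LYZ, EPCAM and COL3A1.

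The mature sequences of 3 of the microRNAs the cells received are shown because they define the treatment, with the seed (bases 2 to 8 from the 5′ end, the part that pairs with a target) in capitals. They are RefSeq's on GRCh38.p14, and they share the seed.
hsa-miR-30a-5p: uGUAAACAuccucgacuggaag
hsa-miR-30c-5p: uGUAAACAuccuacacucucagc
hsa-miR-30e-5p: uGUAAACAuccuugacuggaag

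Promoters of all 10 genes were found in a RefSeq table of GRCh38.p14 that holds 250 bases before to 50 after each gene's start. The 250 bases before the start are shown for EGR1, DUSP1, FOS and JUN, which were all lower in shBCL9 arrays, and for KLF6, which was higher. The motifs in capitals are the CArG box bound by SRF, the cAMP response element TGACGTCA bound by CREB and ATF proteins, its first 5 letters TGACG, the AP-1-like site TGACATCA, and on the gene's strand TATAAA. They lie at chr5:138465229-138465478 on the plus strand for EGR1, chr5:172771196-172771445 on the minus strand for DUSP1, chr14:75278578-75278827 on the plus strand for FOS, chr1:58784048-58784297 on the minus strand for JUN and chr10:3785210-3785459 on the minus strand for KLF6.
EGR1: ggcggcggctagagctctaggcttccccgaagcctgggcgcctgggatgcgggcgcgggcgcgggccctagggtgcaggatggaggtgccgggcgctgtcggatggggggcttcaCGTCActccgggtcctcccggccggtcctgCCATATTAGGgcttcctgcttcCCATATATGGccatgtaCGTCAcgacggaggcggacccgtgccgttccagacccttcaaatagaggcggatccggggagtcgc
DUSP1: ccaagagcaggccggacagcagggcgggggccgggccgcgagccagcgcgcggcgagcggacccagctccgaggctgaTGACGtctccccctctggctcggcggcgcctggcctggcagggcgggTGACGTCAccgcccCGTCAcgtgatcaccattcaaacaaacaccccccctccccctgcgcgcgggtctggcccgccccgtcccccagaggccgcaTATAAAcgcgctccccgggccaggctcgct
FOS: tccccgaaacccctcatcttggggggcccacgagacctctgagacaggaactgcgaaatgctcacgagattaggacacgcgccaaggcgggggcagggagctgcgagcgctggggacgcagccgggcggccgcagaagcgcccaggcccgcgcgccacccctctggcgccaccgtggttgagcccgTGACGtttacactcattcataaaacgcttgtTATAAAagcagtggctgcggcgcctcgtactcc
JUN: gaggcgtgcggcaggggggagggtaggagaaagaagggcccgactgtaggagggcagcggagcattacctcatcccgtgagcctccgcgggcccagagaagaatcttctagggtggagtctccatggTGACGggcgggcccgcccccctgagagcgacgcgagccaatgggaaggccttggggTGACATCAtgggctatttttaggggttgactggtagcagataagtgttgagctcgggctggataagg
KLF6: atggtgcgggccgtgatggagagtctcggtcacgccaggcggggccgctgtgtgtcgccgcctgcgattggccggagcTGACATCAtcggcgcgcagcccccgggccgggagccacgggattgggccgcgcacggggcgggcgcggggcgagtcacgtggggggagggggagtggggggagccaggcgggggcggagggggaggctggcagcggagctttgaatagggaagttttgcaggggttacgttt

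EGR1 held 2 CArG boxes, which began 105 and 83 bases before the start, and it was the only one of the 10 genes with this motif in its window, as were 1.29% of 35116 promoters of the same length. DUSP1 held TGACGTCA from 125 bases before the start and JUND from 200 bases before it, against 1.85% of all promoters. TGACG on either strand, which overlaps TGACGTCA, was found in 8 of the 10 genes and in 24.6% of all promoters; KLF2 and KLF6 had none. TGACATCA was found in JUN, from 67 bases before the start, and in KLF6, from 172 bases before it, against 2.61% of all promoters. TGAGTCA, the classical AP-1 site, was in 0 of the 10 windows and in 4.95% of all promoters. TATAAA was in FOS, FOSB, JUNB and DUSP1, against 7.33% of all promoters. A match to these letters describes the sequence and does not show that a factor binds there. Bases further than 250 before the start were not searched, so a gene without a match here can hold the motif further upstream.

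The hairpin against BCL9 was compared with the one against GFP to ask how these genes stood in cells given it. FOS was at least 5.38-fold lower in shBCL9 arrays, the most of the 10 genes, followed by KLF2 at 2.67-fold, JUN at 2.25-fold, DUSP1 at 1.93-fold and EGR1 at 1.79-fold lower. JUND and JUNB were lower by 1.42-fold and 1.27-fold. KLF6 was 1.30-fold higher, and FOSB and IER2 did not pass the test. Called genes are those with a Benjamini-Hochberg adjusted p under 0.05 in limma over all 14725 genes. By that rule 8 of the 10 genes were called, 1 higher and 7 lower, where 41.5% of all genes were called, 18.7% higher and 22.9% lower. The median difference of the 10 genes was -0.67, beside 0.03 for all genes tested, and the median size without sign was 0.672 beside 0.162. A call was thus common in this comparison, and the ranks by size are given below as well. The 10 genes were chosen with earlier results of these data known, so these counts and medians only describe them.

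**Figure D1:**
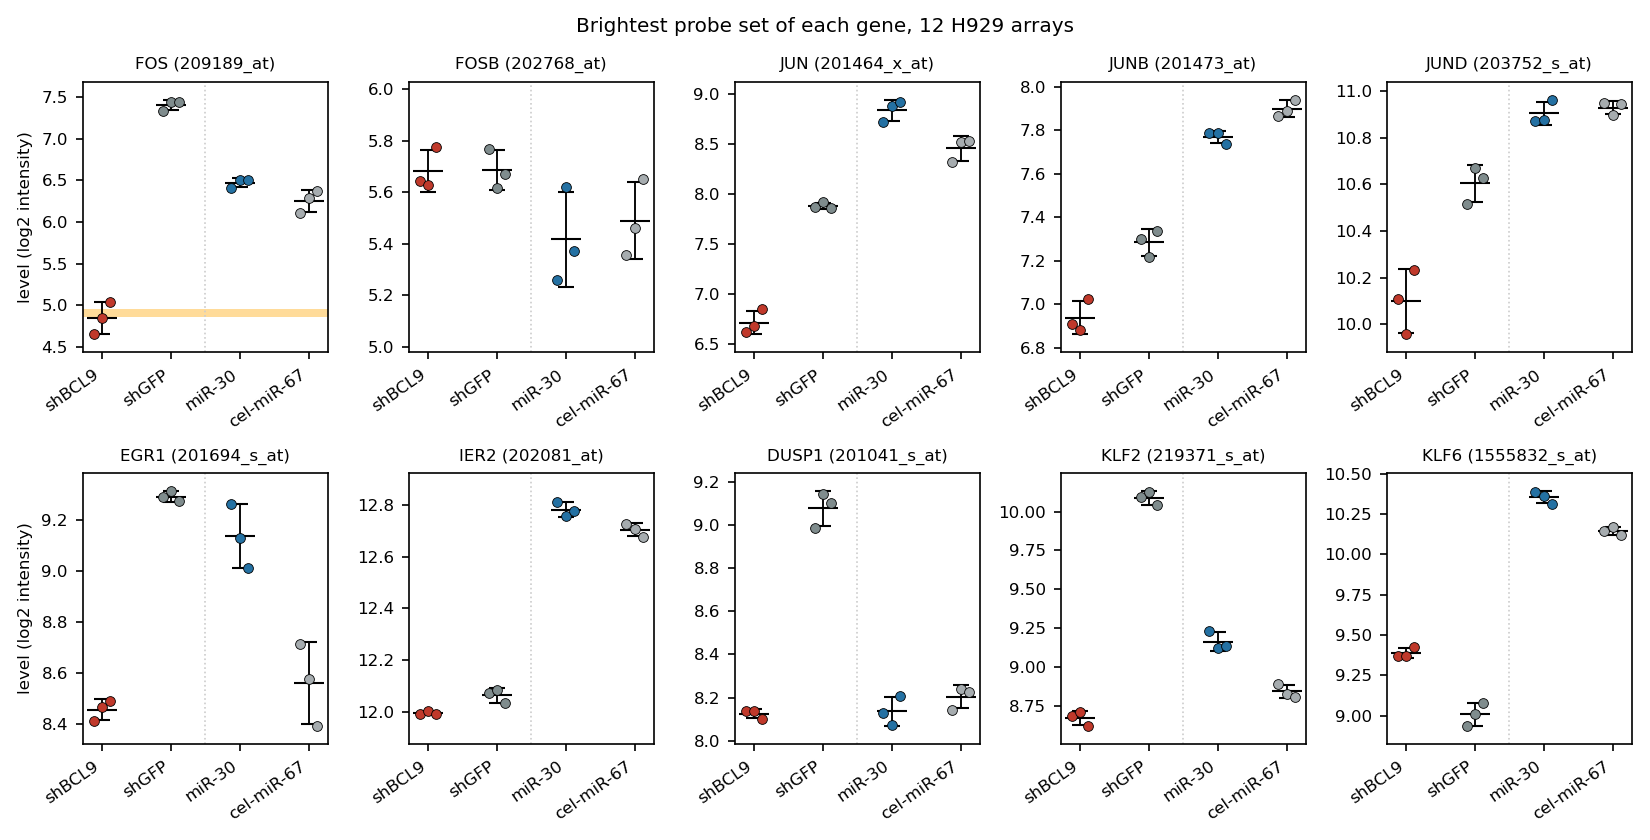
Levels (log2 intensity, vertical axis, one scale per panel and none starting at 0) of the brightest probe set of each gene in the 12 arrays, with 3 arrays for each of shBCL9, shGFP, miR-30 and cel-miR-67. Points are arrays, long bars are means, short bars are 1 SD, and the orange band marks the filter level of 4.86 to 4.95. FOS, JUN, EGR1, DUSP1 and KLF2 show the 3 shBCL9 arrays well below the 3 shGFP arrays, and FOSB shows no separation.

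Of the Fos proteins, which pair with Jun proteins to bind DNA, FOS had levels of 4.65, 4.85 and 5.04 in the 3 shBCL9 arrays. The 3 shGFP arrays had 7.34, 7.45 and 7.44. The groups lay far apart, with 1 of the 3 shBCL9 arrays above the filter level. FOS therefore has only a bound, of at least 5.38-fold lower in shBCL9 arrays, where each shBCL9 array was taken at its own level or its filter level, whichever was higher. The limma adjusted p was 5.53e-10, and the fitted difference of -2.56 is not an exact size. By fitted difference KLF2 ranked 86 from the lowest of 14725 genes, JUN 145, DUSP1 243 and EGR1 340. FOSB, a close relative with the same partners, had levels of 5.64, 5.63 and 5.77 in shBCL9 arrays, against 5.77, 5.62 and 5.67 in shGFP arrays. These overlapped, with a difference of -0.0031 and a 95% interval from -0.21 to 0.20 (adjusted p = 0.983).

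JUN, the most potent activator among the Jun proteins, had levels of 6.62, 6.68 and 6.84 in shBCL9 arrays, against 7.87, 7.92 and 7.86 in shGFP arrays. The groups did not overlap, and the difference was -1.17 (SE 0.0773, limma adjusted p = 1.62e-07). JUNB, a weaker activator that can oppose JUN, had levels of 6.91, 6.88 and 7.03 in shBCL9 arrays, against 7.30, 7.22 and 7.34 in shGFP arrays, a separated but smaller difference of -0.35 (adjusted p = 0.000237). JUND, the Jun gene that is transcribed most evenly in unstimulated cells, had levels of 10.11, 9.96 and 10.23 in shBCL9 arrays, against 10.52, 10.67 and 10.63 in shGFP arrays. Its groups were also separate, with a difference of -0.505 (adjusted p = 8.08e-05). On their brightest probe sets all 3 Jun genes were thus lower, JUN by the most. Not all other probe sets of JUN and JUND were lower, as given below.

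EGR1, a direct target of SRF and ELK proteins, had levels of 8.41, 8.46 and 8.49 in shBCL9 arrays, against 9.29, 9.31 and 9.27 in shGFP arrays. No array of a group came near the other group, and the difference was -0.84 (SE 0.0795, limma adjusted p = 3.89e-06). DUSP1, the phosphatase that switches off p38, JNK and ERK, had levels of 8.14, 8.14 and 8.10 in shBCL9 arrays, against 8.99, 9.14 and 9.10 in shGFP arrays. That was a clear separation too, with a difference of -0.95 (SE 0.0556, adjusted p = 5.44e-08). IER2, a small nuclear protein of the immediate early class, had the narrowest spread of all, at 11.99, 12.002 and 11.99 in shBCL9 arrays, against 12.07, 12.08 and 12.03 in shGFP arrays. The groups did not overlap, yet the difference was only -0.07 and did not pass the test (adjusted p = 0.213). Without overlap 8 of the 10 genes were lower and 1 was higher, where 27.2% of all genes were lower and 24.8% higher by that rule.

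The KLF genes moved in opposite directions. KLF2 had levels of 8.68, 8.71 and 8.62 in shBCL9 arrays, against 10.09, 10.13 and 10.04 in shGFP arrays. The gap was many times the spread within a group, and the difference was -1.42 (SE 0.0512, limma adjusted p = 7.57e-10). KLF6, which is induced by many stimuli and acts as a growth suppressor in several tissues, had levels of 9.37, 9.37 and 9.42 in shBCL9 arrays, against 8.94, 9.01 and 9.07 in shGFP arrays. It was the one gene of the 10 whose shBCL9 arrays all lay above the shGFP arrays, with a difference of 0.38 (SE 0.0491, adjusted p = 5.45e-05).

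The probe sets of a gene did not always tell the same story. Of the 25 probe sets 23 passed the level filter, and 15 of these were called in the hairpin arm, 5 higher and 10 lower, where 37.3% of all 34381 probe sets tested were called, 16.3% higher and 21% lower. All 3 EGR1 probe sets were lower in shBCL9 arrays, by -0.84, -0.64 and -0.95. KLF6 was higher on 4 of its 5 probe sets, by 0.38, 0.26, 0.50 and 0.44, and the fifth, 211610_at, which was dim in all groups, differed by 0.0091 (adjusted p = 0.958). JUN was lower on its brightest probe set, 201464_x_at, but 201465_s_at differed by 0.02 (adjusted p = 0.891) with levels of 6.21, 6.46 and 6.08 in shBCL9 arrays, against 6.36, 6.17 and 6.16 in shGFP arrays. JUN 201466_s_at was among the 15 called, with levels of 3.59, 4.01 and 3.86 in shBCL9 arrays, against 4.61, 4.74 and 4.62 in shGFP arrays. All 6 lay below the filter level, and the probe set was tested only through the transfected arrays, so its call adds nothing to that of 201464_x_at. JUN 213281_at and JUND 214326_x_at lay too low to be tested.

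For DUSP1, JUND and KLF2 the change rested on the brightest probe set. DUSP1 226578_s_at, with a mean level of 6.23 in shBCL9 arrays and 5.997 in shGFP arrays, went the other way, with a difference of 0.24 (limma adjusted p = 0.0387), and 201044_x_at differed by -0.011 (adjusted p = 0.931). JUND 203751_x_at differed by -0.05 (adjusted p = 0.661) and 229117_s_at by 0.26 (adjusted p = 0.110). The mean over the JUND probe sets differed by -0.04 (adjusted p = 0.610). KLF2 226646_at, with a mean level of 5.80 in shBCL9 arrays and 5.99 in shGFP arrays, differed by -0.19 and did not pass the test (adjusted p = 0.156). Names that end in _s_at or _x_at mark probe sets that can share probes with other transcripts. With only probe sets free of these suffixes, 6 of the 10 genes were tested and 3 were called, FOS and JUNB as lower and KLF6 as higher.

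**Figure D2:**
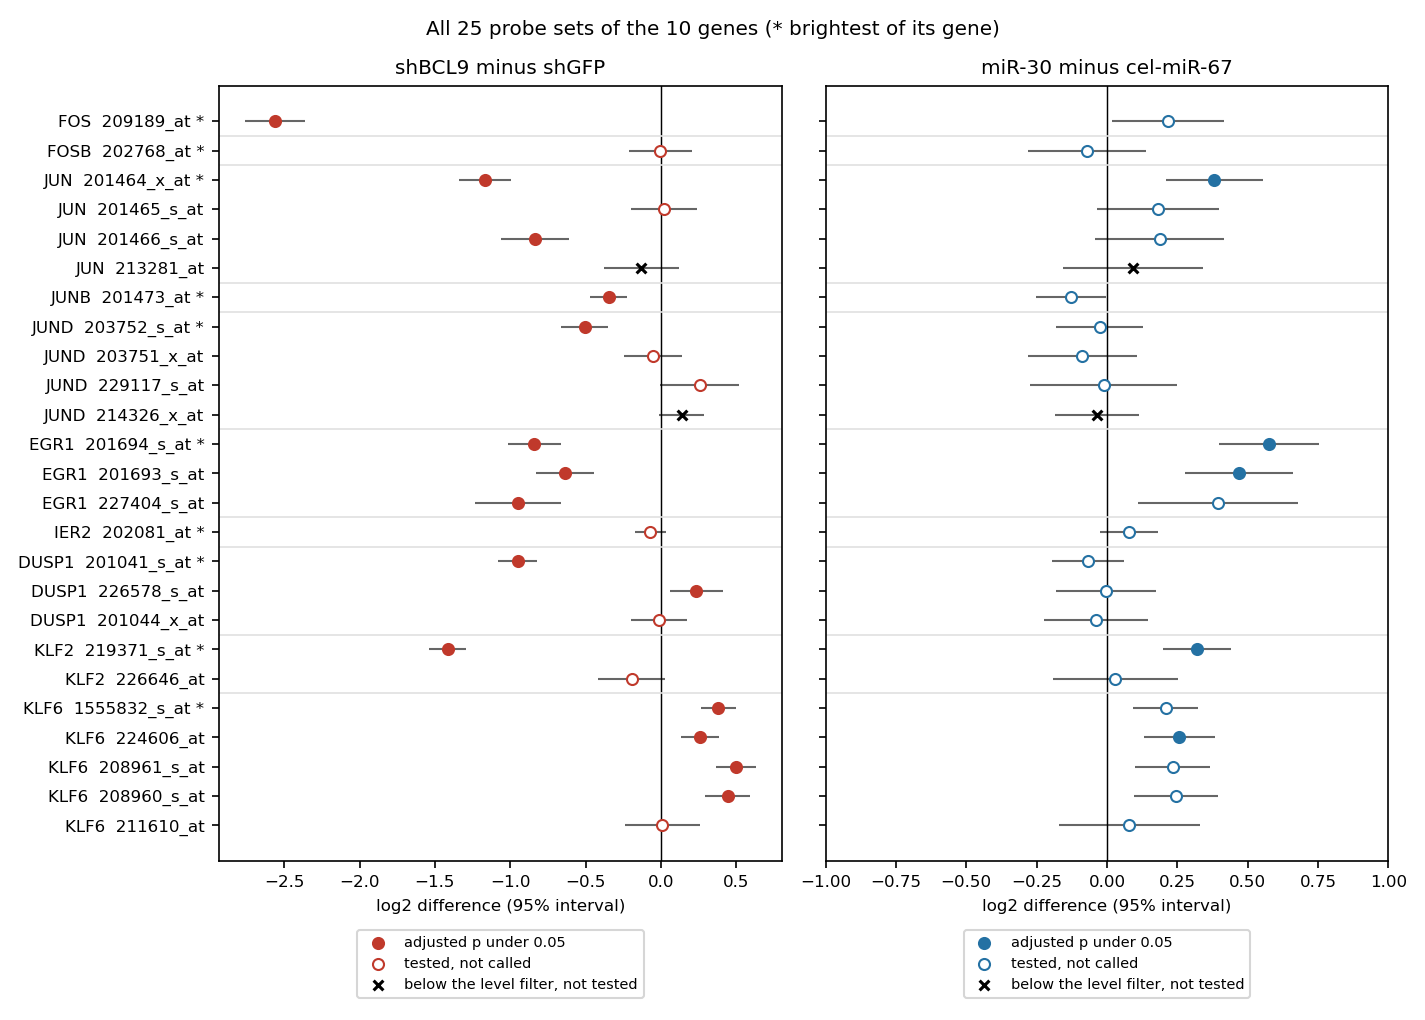
Difference of each of the 25 probe sets (horizontal axis, log2; the scales of the panels differ), shBCL9 minus shGFP on the left and miR-30 minus cel-miR-67 on the right. Points are limma's fitted differences, bars 95% intervals, filled points pass the adjusted p of 0.05, crosses were not tested, and asterisks mark the brightest probe set. On the left 15 probe sets pass, and the probe sets of JUN, JUND, DUSP1 and KLF2 spread apart; on the right 5 pass, all of them higher.

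Of 5 RNA and hybridization quality measures, 4 did not overlap between shBCL9 and shGFP arrays, and all are given beside these results. The 18S ribosomal RNA signal was 13.23 ± 0.02 in shBCL9 arrays and 12.38 ± 0.07 in shGFP arrays (SD, n = 3 each; two-sided exact permutation p = 0.1, the smallest that 3 against 3 arrays allow). The ACTB 3' to 5' difference, which grows as RNA is degraded, was 1.67 ± 0.08 in shBCL9 arrays and 1.30 ± 0.11 in shGFP arrays (exact permutation p = 0.1). The poly-A spike-in signal was 6.35 ± 0.45 in shBCL9 arrays and 7.01 ± 0.15 in shGFP arrays (exact permutation p = 0.1). The hybridization spike-in signal was 10.97 ± 0.06 in shBCL9 arrays and 11.22 ± 0.10 in shGFP arrays (exact permutation p = 0.1). The GAPDH 3' to 5' difference was 0.131 ± 0.0212 in shBCL9 arrays and 0.136 ± 0.0190 in shGFP arrays, which overlapped (exact permutation p = 0.5). With the ACTB difference as a covariate, 5 of the 10 genes were called, and JUNB, JUND and KLF6 no longer were. With the 18S signal as a covariate, which separates the groups almost completely, limma called 0 of the 10 genes and 6 had an unadjusted p under 0.05. The FOS difference was then -2.23 with an SE of 0.691 (adjusted p = 0.380), and the effect of the hairpin and of whatever the 18S signal follows cannot be told apart.

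Markers of other cells were checked in the same arm. The mean level of the 7 T and NK cell markers lay between 5.02 and 5.17 in shBCL9 arrays and between 5.30 and 5.42 in shGFP arrays, with 4 of the 7 above the filter level in both groups. Of 4 tested, 2 were called lower in shBCL9 arrays, where 22.9% of all genes were. These were GZMB and PRF1, which code for cytotoxic granule proteins, although the other PRF1 probe set had the opposite sign. CD3G, CD2 and NKG7 lay below the filter level. The plasma cell markers averaged 12.14 to 12.15 in shBCL9 arrays and 11.89 to 11.91 in shGFP arrays, and the stromal and epithelial markers 6.52 to 6.56 in shBCL9 arrays and 6.33 to 6.49 in shGFP arrays. The ranges of the B cell, myeloid and erythroid markers overlapped between shBCL9 and shGFP arrays. The part of these shifts in the results was not tested.

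In the transfected arm, arrays labelled miR-30 were compared with cel-miR-67 arrays. EGR1 was 1.49-fold higher, JUN 1.30-fold, KLF2 1.25-fold and KLF6 1.16-fold higher in arrays labelled miR-30, and the other 6 genes did not pass the test. Called as higher were 4 of the 10 genes, where 2.35% of all genes were called higher, 2.63% lower and 4.98% in either direction. None of the 10 genes was called lower by limma, and 1 of them, JUNB, was lower at an unadjusted p under 0.05. The median difference was 0.14, beside -0.02 for all genes tested. Without overlap 6 of the 10 genes were higher and 1 was lower, where 10% of all genes were higher and 16.1% lower by that rule.

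EGR1 had levels of 9.26, 9.13 and 9.01 in arrays labelled miR-30, against 8.71, 8.57 and 8.39 in cel-miR-67 arrays. Both groups were spread widely without meeting, and the difference of 0.58 (SE 0.0795, limma adjusted p = 0.00180) ranked 28 from the highest of 14725 genes. Over the 23 probe sets tested 5 were called in this arm, all higher, where 2.67% of all probe sets were called and 1.45% higher. The EGR1 probe set 201693_s_at was also called, with a difference of 0.47 (adjusted p = 0.0168), and 227404_s_at differed by 0.39 without passing (adjusted p = 0.138). JUN had levels of 8.71, 8.88 and 8.92 in arrays labelled miR-30, against 8.31, 8.52 and 8.53 in cel-miR-67 arrays, which did not overlap (difference 0.38, adjusted p = 0.0153). The JUN call was lost when cel-miR-67 replicate 1, miR-30 replicate 2 or miR-30 replicate 3 was left out, with adjusted p = 0.0574, 0.0679 and 0.0542 in that order.

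KLF2 had levels of 9.23, 9.12 and 9.13 in arrays labelled miR-30, against 8.89, 8.83 and 8.81 in cel-miR-67 arrays, a clean separation with a difference of 0.32 (limma adjusted p = 0.00438). KLF2 226646_at differed by 0.03 (adjusted p = 0.921), so this call too rested on the brightest probe set. KLF6 had levels of 10.39, 10.36 and 10.31 in arrays labelled miR-30, against 10.14, 10.17 and 10.12 in cel-miR-67 arrays, with a difference of 0.21 (adjusted p = 0.0298). Its 5 probe sets all had positive differences, from 0.08 to 0.26, yet the call of the gene was lost in 9 of 19 alternatives, among them those without any 1 of the 3 cel-miR-67 arrays and without miR-30 replicate 1 or 2. With the 18S signal as a covariate limma called 0 of the 10 genes in this arm and 3 had an unadjusted p under 0.05; that signal was 12.64 ± 0.04 in arrays labelled miR-30 and 12.50 ± 0.05 in cel-miR-67 arrays (SD, n = 3 each; exact permutation p = 0.1).

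Among the genes that did not pass in this arm, FOS had levels of 6.41, 6.51 and 6.50 in arrays labelled miR-30, against 6.11, 6.29 and 6.37 in cel-miR-67 arrays. These were separate by a narrow margin, with a difference of 0.22 and a 95% interval from 0.02 to 0.41 (limma adjusted p = 0.187). JUNB had levels of 7.79, 7.79 and 7.74 in arrays labelled miR-30, against 7.87, 7.89 and 7.94 in cel-miR-67 arrays, lower in each array by a small amount (difference -0.13, adjusted p = 0.193). DUSP1 had levels of 8.13, 8.07 and 8.21 in arrays labelled miR-30, against 8.14, 8.24 and 8.23 in cel-miR-67 arrays, and these overlapped (difference -0.07, adjusted p = 0.548). JUND, IER2 and FOSB differed by -0.03, 0.08 and -0.07, with adjusted p from 0.323 to 0.879. A p that misses the threshold does not show that these genes were the same in both groups.

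**Figure D3:**
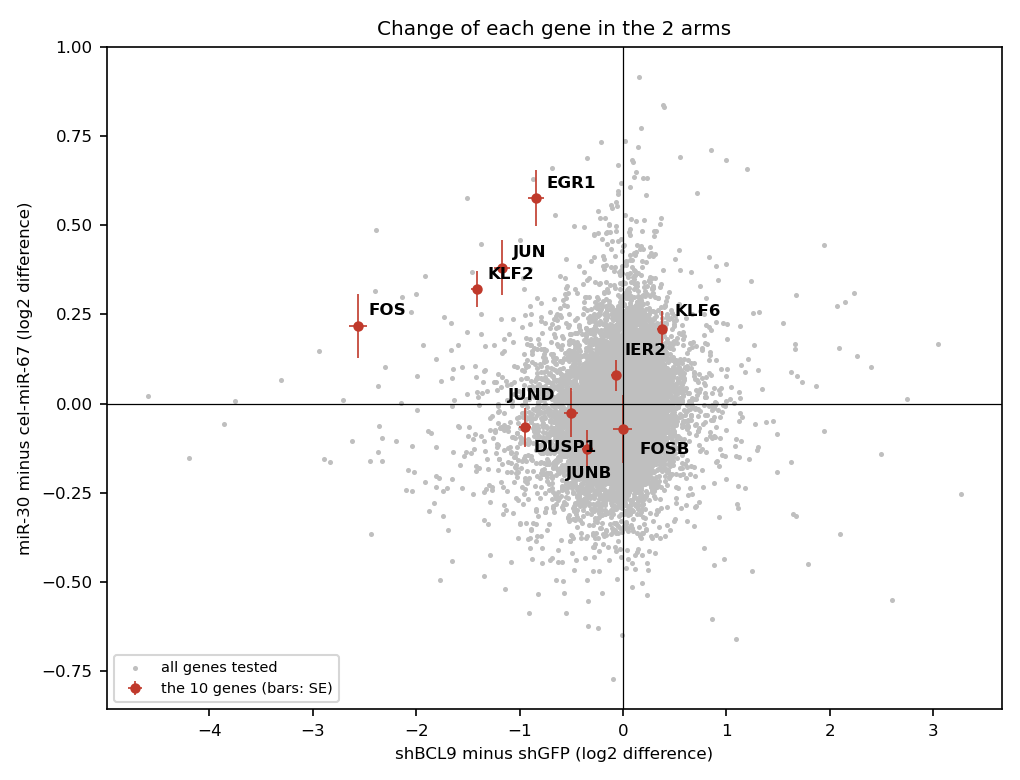
Difference of each gene in the hairpin arm (horizontal axis, shBCL9 minus shGFP, log2) against its difference in the transfected arm (vertical axis, miR-30 minus cel-miR-67, log2; the axes have different scales). Red points with bars of 1 SE are the 10 genes and grey points are all 14725 genes tested. FOS, JUN, EGR1 and KLF2 lie in the upper left, lower in shBCL9 arrays and with positive differences in the transfected arm, and KLF6 lies in the upper right.

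The effects of the arms were then compared with each other, as the miR-30 effect minus the shBCL9 effect. By limma's test of that difference 6 of the 10 genes were called, all with a positive value, where 26.3% of all genes were called and 14.6% with a positive value. FOS differed by 2.78 (adjusted p = 1.76e-08), a fitted value that is not an exact size because its shBCL9 arrays lay near the filter level. KLF2 differed by 1.74 (adjusted p = 7.15e-09), JUN by 1.55 (adjusted p = 7.77e-07) and EGR1 by 1.42 (adjusted p = 2.10e-06). DUSP1 differed by 0.88 (adjusted p = 5.59e-06) and JUND by 0.48 (adjusted p = 0.00300), genes whose own differences were -0.95 and -0.505 in the hairpin arm and -0.07 and -0.03 in the transfected arm. JUNB (0.22, adjusted p = 0.0501), IER2 (0.15), KLF6 (-0.17) and FOSB (-0.07) did not pass. These are values of the brightest probe sets. The other EGR1 probe sets passed, at 1.10 and 1.35. The other tested probe sets of KLF2 (0.22), DUSP1 (-0.24 and -0.03) and JUND (-0.03 and -0.27) did not (limma adjusted p from 0.167 to 0.896). JUN 201465_s_at, at 0.16, did not pass either (adjusted p = 0.451).

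The 4 groups also differed in baseline. In shGFP arrays, set against cel-miR-67 arrays, 9 of the 10 genes were called, 4 higher and 5 lower, where 61.4% of all genes were called, 28.4% higher and 33% lower. Infection, sorting and transfection differ together between these controls and cannot be told apart. KLF2 was 2.37-fold, FOS 2.22-fold, DUSP1 1.83-fold and EGR1 1.66-fold higher in shGFP arrays. KLF6 was 2.2-fold, IER2 1.56-fold, JUNB 1.53-fold, JUN 1.49-fold and JUND 1.25-fold lower in shGFP arrays, and FOSB differed by 0.20 without passing (limma adjusted p = 0.0911). These are values of the brightest probe sets. The other tested probe sets of DUSP1 (-0.06 and 0.10) and JUND (-0.07 and 0.02) were not called (adjusted p from 0.342 to 0.896). Nor was KLF6 211610_at (0.08, adjusted p = 0.560). KLF2 226646_at (0.32) and the other EGR1 probe sets (0.53 and 0.62) were called. The ACTB 3' to 5' difference lay between 1.17 and 1.36 in shGFP arrays and between 2.06 and 2.21 in cel-miR-67 arrays, and with it as a covariate 4 of the 10 genes were called. This comparison shares the shGFP arrays with the hairpin arm and the cel-miR-67 arrays with the transfected arm, so its values are not independent of theirs.

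The order of the group means on the brightest probe sets fell into several patterns. FOS and KLF2 were highest in shGFP arrays, then in arrays labelled miR-30, then in cel-miR-67 arrays and lowest in shBCL9 arrays, and no neighbours in that order overlapped. EGR1 had the same order, with cel-miR-67 and shBCL9 arrays overlapping at the low end. DUSP1 was high in shGFP arrays alone, and the other 3 groups lay between levels of 8.07 and 8.24. Among these, arrays labelled miR-30 overlapped both cel-miR-67 and shBCL9 arrays, which did not overlap each other. On DUSP1 226578_s_at shBCL9 arrays had the highest mean (6.23) and shGFP arrays the lowest (5.997). JUN and IER2 were highest in arrays labelled miR-30, then in cel-miR-67, shGFP and shBCL9 arrays, with no overlap of neighbours. JUNB and JUND had both transfected groups on top in the other order, and for JUND these overlapped. KLF6 stood apart, with both transfected groups on top, shBCL9 arrays next and shGFP arrays lowest, without overlap. FOSB neighbours all overlapped.

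Genes with a profile most like the mean standardised profile of the 10 genes over the 12 arrays were ARHGDIB (Pearson r = 0.993), TMT1A (0.983), CYTIP (0.981), MBP (0.978) and ELK3 (0.977). These values describe the arrays, which fall into 4 groups, so that an r over 12 arrays reflects mainly 4 group means. The 5 were picked for their match to this profile in the same arrays, so their lower level in shBCL9 arrays follows from the choice. ARHGDIB had a mean level of 7.75 in shBCL9 arrays and 8.91 in shGFP arrays, and MBP 6.70 in shBCL9 arrays and 8.34 in shGFP arrays. ELK3 is a partner of SRF at serum response elements. Of the 10 genes, JUN and FOS followed the mean profile most closely (r = 0.902 each), KLF6 least among those with a positive value (0.330), and FOSB ran against it (-0.332). That mean includes the gene it is compared with, which raises each of these r values.

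Genes around the 10 in the pathway were described from 9 lists, whose counts are read against the shares of all genes. In the hairpin arm 41.5% of all genes were called, 18.7% higher and 22.9% lower. In the transfected arm 4.98% were called. Among the kinases and transcription factors upstream, 25 of 33 were tested, and 9 were lower and 2 higher in shBCL9 arrays. ELK3 had a mean level of 8.16 ± 0.02 in shBCL9 arrays and 9.58 ± 0.17 in shGFP arrays (SD, n = 3 each; difference -1.42, limma adjusted p = 1.66e-08). SRF, which binds CArG boxes, differed by -0.38 (adjusted p = 9.99e-05), although its other probe set had the opposite sign, and ELK4 by -0.47 (adjusted p = 0.000207). RPS6KA1, a kinase activated by ERK, differed by -0.41. MAPK3, which encodes ERK1, differed by 0.19 (adjusted p = 0.0669) and ELK1 by -0.013 (adjusted p = 0.876), neither passing. In arrays labelled miR-30 only MEF2C of the 25 was called, with a difference of 0.18 (adjusted p = 0.0434).

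Of the other AP-1 and bZIP partners, 6 of 14 tested were lower and 2 higher in shBCL9 arrays, where 22.9% and 18.7% of all genes were. The 2 that were higher were ATF3, a stress-induced repressor or activator that pairs with Jun, with a mean level of 7.50 in shBCL9 arrays and 6.57 in shGFP arrays (difference 0.94, limma adjusted p = 2.31e-07), and BATF3 (0.44). MAF (-0.28) and MAFF (-0.24) were lower. In arrays labelled miR-30 only MAFF was called, at 0.25, and its other probe set had the opposite sign. In shGFP arrays, set against cel-miR-67 arrays, 9 of the 14 were lower and 0 higher, where 33% and 28.4% of all genes were. ATF3 stood at -3.87, JDP2 at -2.98, BATF3 at -2.36 and FOSL2 at -1.45. Of the other EGR genes and their NAB corepressors, 3 were tested and EGR4 was higher in shBCL9 arrays, at 0.25 (adjusted p = 0.0263).

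Of the other KLF genes, 7 of 13 tested were lower in shBCL9 arrays and 0 higher, by limma as at an unadjusted p under 0.05. By limma's adjusted p, 22.9% of all genes were lower and 18.7% higher there. KLF10, which is induced by TGF-beta, differed by -0.81, KLF9, a target of steroid hormones, by -0.68, KLF12 by -0.52 and KLF13 by -0.42 (adjusted p from 1.13e-05 to 6.58e-05). One of the 3 other KLF9 probe sets had the opposite sign. KLF13 was also lower in arrays labelled miR-30, at -0.33 (adjusted p = 0.00369), where 1 of its 3 other probe sets disagreed, and it was the only KLF gene of this list called there. Among 5 genes that KLF2 is known to control in lymphocytes, ITGB7 alone was tested, and it was higher in shBCL9 arrays, at 0.29 (adjusted p = 0.000227).

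Of other immediate early genes, 8 of 20 tested were lower and 3 higher in shBCL9 arrays. Of all genes, 22.9% were lower and 18.7% higher there, and 2.35% were higher in arrays labelled miR-30. RHOB, a small GTPase, differed by -1.37, SIK1, a kinase induced by cAMP, by -1.10 with its other probe set of opposite sign, and ZFP36, which binds AU-rich elements and speeds mRNA decay, by -0.70. PHLDA1 was higher, at 0.71, with 1 of 5 other probe sets of opposite sign. In arrays labelled miR-30 limma called 0 of the 20, and 3 were higher at an unadjusted p under 0.05. Of the other dual-specificity MAPK phosphatases, DUSP4 (0.78) and DUSP16 (0.25) were higher and DUSP6 (-0.30) lower of 9 tested in shBCL9 arrays. In arrays labelled miR-30 DUSP10 (0.38, adjusted p = 0.00340) and DUSP4 (0.25, adjusted p = 0.0195) were higher, although 1 of 2 other DUSP4 probe sets had the opposite sign.

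AU-rich elements make mRNAs such as that of FOS short-lived. Of the factors that bind them or clear the mRNA, 7 of 14 tested were lower and 1 was higher in shBCL9 arrays. Of all genes, 22.9% were lower and 18.7% higher there, and 2.35% were higher in arrays labelled miR-30. ZFP36L1 had a mean level of 3.36 ± 0.25 in shBCL9 arrays and 7.12 ± 0.20 in shGFP arrays (SD, n = 3 each). With all shBCL9 arrays under the filter level it has only a bound, of at least 4.49-fold lower in shBCL9 arrays (limma adjusted p = 1.97e-10). ZFP36L2 (-0.57), TOB1 (-0.45) and TOB2 (-0.60) were also lower, and ZFP36L2 and TOB2 each had another probe set of opposite sign. In arrays labelled miR-30 HNRNPD (0.35) and ZFP36L2 (0.28) were higher. Heat shock genes, taken as a sign of handling stress, numbered 3 lower and 2 higher of 10 tested in shBCL9 arrays, with HSPH1 at -0.55, DNAJA1 at -0.49, HSPB1 at 0.81 and BAG3 at 0.32. In shGFP arrays, set against cel-miR-67 arrays, 6 were higher and 2 lower, where 28.4% and 33% of all genes were. HSPH1 stood at 2.05, HSP90AB1 at 1.90, DNAJA1 at 1.53 and HSP90AA1 at 1.11. The part of handling stress in the baseline differences of the 10 genes was not tested.

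**Figure D4:**
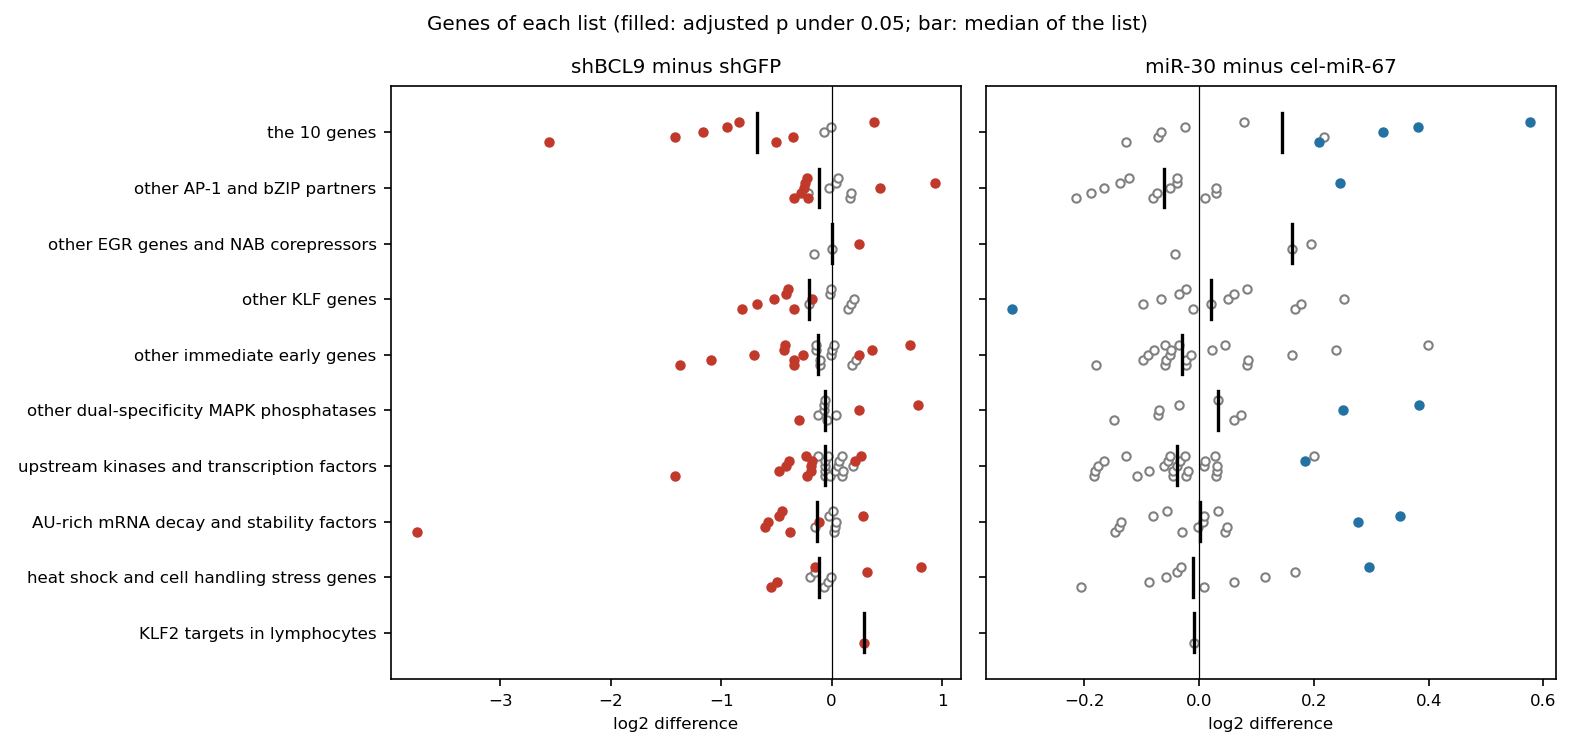
Differences (horizontal axis, log2; the scales of the panels differ) of the tested genes of each list, shBCL9 minus shGFP on the left and miR-30 minus cel-miR-67 on the right. Points are genes, filled where the adjusted p is under 0.05, and black bars are list medians. On the left the 10 genes have a median of -0.67 and the other lists of more than 1 gene lie between -0.21 and 0.0013. The 10 genes and the lists were chosen with earlier results of these data known, so the gap between them is descriptive only. On the right the 10 genes have a median of 0.14, and those other lists lie between -0.06 and 0.16. The other EGR genes and NAB corepressors have the highest there, with 3 genes tested and 0 called.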

How the data were processed

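Trizol RNA of H929 cells was biotin-labelled by in vitro transcription from the 3' end and read on 12 arrays with 54675 probe sets, per the labels' protocols. The deposited values are log2 intensities that the authors computed by RMA with affy (versions not given in the sources used here), per the submitters' processing notes. No read depth exists for arrays, so precision depends on how many there are. RMA compresses differences of dim probe sets.

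Probe sets were named from the platform annotation: 41091 carried 1 symbol, 1801 carried several and 11777 are unnamed here. Fits used limma 3.58.1 (lmFit, eBayes) in R 4.3.3 over all 12 arrays with a mean per group, for 14725 genes (brightest probe set) or 34381 probe sets, with Benjamini-Hochberg adjustment. The steps were tested on simulated data. Figures used Python 3.11.15 and matplotlib 3.10.9. The 10 genes, the 9 lists (134 genes) and the marker lists were chosen with earlier results of these data known. Named were the 10 genes with all probe sets, up to 4 called genes per list and comparison by adjusted p, MAPK3, SRF and ELK1, and the 5 most similar profiles; a further upstream gene of the rule is not reported here. Any pair of arrays shared 17 to 90 identical values, so no array was a copy. Alternatives covered filters, probe set rules, normalization, weights, thresholds, RNA quality covariates, a replicate block and leaving out each array.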

Additional observations from a re-analysis of the deposited data

Results flagged for a closer look

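For 6 of the 10 genes the effect of the treatment differed between the arms by limma's test of the difference itself (the miR-30 effect minus the shBCL9 effect, log2). By the same test 26.3% of all genes were called, 14.6% with a positive value. The values were 2.78 for FOS, 1.74 for KLF2, 1.55 for JUN, 1.42 for EGR1, 0.88 for DUSP1 and 0.48 for JUND. The FOS value is not an exact size, since its shBCL9 arrays lay near the filter level. All are values of the brightest probe sets, and for KLF2, DUSP1 and JUND no other tested probe set passed. JUN 201465_s_at, at 0.16, did not pass either (limma adjusted p = 0.451). JUN 201466_s_at passed at 1.02, but its shBCL9 and shGFP arrays all lay below the filter level. Each of the 6 was lower in shBCL9 arrays than in shGFP arrays. With the 18S signal as a covariate the 6 values lay between 1.07 and 2.50 and limma called 0 of the 10 genes, while 6 had an unadjusted p under 0.05.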

How the results depend on the processing

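Over all alternatives, 715 of 790 values of single genes kept their direction and their side of the threshold, 46 lost the call, 12 gained one and 17 changed sign. In the hairpin arm (8 of the 10 genes called) the count was 3 with plain probe sets and 3 with a 2-fold minimum. It was 5 with the ACTB covariate and 0 with the 18S covariate (6 at an unadjusted p under 0.05); probe sets called were 7 and 0 (7 unadjusted). All genes called were 2968 with the ACTB, 2970 with the poly-A and 11 with the 18S covariate. In the transfected arm (4 called) the count was 2 with the mean of probe sets, 1 with plain probe sets, 2 at an adjusted p under 0.01, 0 with a 2-fold minimum (6 unadjusted), 0 with the 18S covariate (3 unadjusted), and 2 to 3 with 1 array left out. Probe sets called there (5) were 3 without a filter, 8 with the 60th percentile filter, 8 after a further quantile normalization, 0 with the 18S covariate (5 unadjusted), and 1 to 3 with 1 array left out. All genes called (734) were 1113 with the 60th percentile filter, 475 with plain probe sets, 56 with the 18S covariate and 297 to 542 with 1 array left out. The fewest came without cel-miR-67 replicate 2 (297), miR-30 replicate 2 (315), cel-miR-67 replicate 3 (386) and cel-miR-67 replicate 1 (413). For the difference of the arms (6 called) plain probe sets gave 1 and the 18S covariate 0 (6 unadjusted). For shGFP against cel-miR-67 (9 called) plain probe sets gave 5, a 2-fold minimum 3 and the ACTB covariate 4.

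Changes of sign concerned FOSB and KLF6. FOSB in the hairpin arm was 0.010 with array weights, 0.35 with the ACTB and 1.45 with the 18S covariate, and -0.049 to 0.039 with 1 array left out. In the transfected arm it was 0.16 with the 18S covariate and -0.17 to 0.0090 with 1 array left out. Its difference between arms was 0.019 with the poly-A covariate and -0.17 to 0.012 with 1 array left out. In shGFP against cel-miR-67 it was -0.61 with the ACTB and -0.024 with the 18S covariate. KLF6 was -0.036 with the 18S covariate in the hairpin arm, and its difference between arms was 0.00021 with plain probe sets and 0.18 with the 18S covariate. The cause was not tested.

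Same-numbered arrays of the treatment arms correlated in their deviations at 0.050 to 0.226, and differently numbered arrays at -0.242 to 0.126. Deviations from means of 3 arrays cannot settle whether the numbers pair the arrays, and the main fits left them unpaired. With the replicate block 8 and 4 of the 10 genes were called in the arms, beside 6340 and 589 of all genes, and 7 of the 10 differed between arms. Of all calls in the hairpin arm 44.9% were higher, against 52.4% after quantile normalization and 36.7% after median centring; in the transfected arm 47.1%, 58.3% and 40.6%. Under both, 1 of the 10 genes was higher and 7 lower in the hairpin arm. Levels near 4.9 limit what can be said of FOS and ZFP36L1 in shBCL9 arrays.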
